A study of Canis lupus familiaris with 33 samples.

Results

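The regions described here were long stretches of the dog autosomes in which none of 11 tissues had a methylation peak. The peaks came from MBD-seq, which enriches sheared DNA on beads that carry a methyl-CpG-binding domain and sequences what they hold. All peaks of the 11 tissue lists were merged on autosomes 1 to 38 into 450785 union regions. A gap was an interval of at least 50 kb between consecutive union regions of a chromosome, with the chromosome ends left out. Of 450747 such intervals, 1061 (0.235%) were gaps. The gaps were chosen by the positions of the peaks themselves, so their number, length and place are given as a description without a test.

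The tissues were 2 of brain (cerebrum and cerebellum), 4 of the digestive system (stomach, colon, liver and pancreas), kidney, lung, spleen, ovary and mammary gland. They came from healthy beagles, 1 male and 2 female per the labels, which were euthanized with alfaxalone and KCl; the tissues are described as adult and normal. The labels conflict for 1 animal identifier, jj8, which is male in the MBD libraries and female in the input libraries. For every tissue, MBD libraries of 2 animals and 1 input library were made, and a single peak list stood for both MBD libraries. No spread between replicates can be computed within a tissue, so the 11 tissues were the units of the tests. They share animals, since 1 identifier recurs in the MBD libraries of all 11. In ovary and mammary gland the other MBD library carried an identifier seen in no other tissue, and neither had a jj8 library. The lists held 260977 (colon) to 370761 (ovary) peaks, and the number of reads behind them is unknown.

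In mammalian somatic tissue most CpG dinucleotides are methylated, but CpGs are unevenly spread along chromosomes. The binding domain holds fragments with several methylated CpGs more firmly than fragments with few, and the sequenced DNA was that eluted at the highest salt. Methylated but CpG-poor DNA is therefore captured less than methylated CpG-rich DNA. The absence of a peak says that no interval passed the peak caller and a possible later filter; it does not say that the DNA was unmethylated. Repeats and incomplete assembly can also keep reads from being placed. The sequence and the genes of the gaps were not analysed here, and all positions are in the CanFam3.1 build of the dog genome, 1-based.

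The gaps covered 70.4 Mb, or 3.20% of the 2203 Mb between the first and last union regions of the autosomes. Their median length was 58590 bases (quartiles 53283 and 69364), whereas the median of all autosomal intervals was 1659 bases and their 99th percentile 33315. Most gaps were short for the class. There were 581 gaps (54.8%) under 60 kb, 288 from 60 to 75 kb, 139 from 75 to 100 kb and 53 (5.0%) of 100 kb or more. The 53 longest made up 8.20 Mb. Around the threshold the lengths ran on without a step. The 3 shortest gaps were 50010 bases (chr32:23502497-23552506), 50014 bases (chr15:51651636-51701649) and 50029 bases (chr25:21380095-21430123). The 3 intervals just below were 49988 bases (chr4:46220800-46270787), 49931 bases (chr12:23984362-24034292) and 49922 bases (chr12:56084865-56134786). Chromosome X, which the definition leaves out, had 55 such intervals, the longest of 164066 bases. That came to 4.44 per 10 Mb, against 4.82 per 10 Mb on the autosomes.

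**Figure D1:**
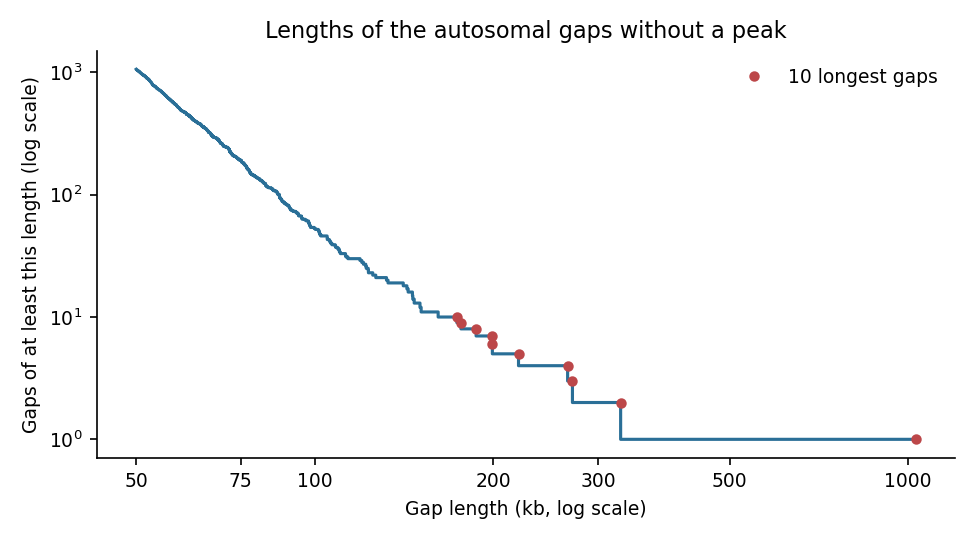
Number of gaps (y axis, log scale) of at least a given length in kb (x axis, log scale). The curve of all 1061 gaps falls steadily to about 200 kb, and 1 gap of 1029818 bases lies apart from the other 9 of the 10 longest (red points).

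The longest gap, of 1029818 bases, lay at chr31:28534124-29563941 and was 3.14 times as long as the next. It held 1.46% of all gap bases. In every one of the 11 lists taken alone, the longest autosomal interval without a peak spanned this place, from 1047359 bases in ovary to 1118360 in mammary gland. A gap is empty in every list by definition, so the lists do not give separate support for the place. The regions at its ends were a 245-base region found in cerebellum, whose fold (the deposited enrichment of a peak) was 0.467 when divided by the list median, and a 255-base region found in liver, at 0.564. The second longest gap, of 327652 bases at chr31:28057909-28385560, was its near neighbour.

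These gaps belonged to a run of 6 gaps between 27763162 and 29563941 on chromosome 31. Gaps made up 98.9% of its 1.80 Mb, and 7 union regions lay inside, or 3.89 per Mb. Of these 7 regions, 4 were found in 1 tissue (cerebellum in 3 of them and ovary in the other). A single one, of 855 bases at chr31:28462301-28463155, had a peak in all 11 tissues, with a median of 1.64 times the list median. Outside the run the regions were dense at once. There were 102 union regions in the 250 kb before it and 58 in the 250 kb after it, where the autosomal mean density gives 51.1. The numbers that name the peaks in each list had holes (10.7% of numbers in mammary gland to 15.7% in kidney), and a missing number cannot be placed on a chromosome. Whether any gap, this one included, held peaks that carry the missing numbers was not tested. Without this run, 1055 gaps remained, and the mean differences described below were −8.07 points for presence, −0.18 for log2 fold and −1.70 for log2 density, where all gaps gave −8.16, −0.18 and −1.74.

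The other 8 of the 10 longest gaps lay on 5 chromosomes. The third, of 271776 bases at chr7:1671877-1943652, had a region with a peak in all 11 tissues at its left end (1.66 times the list median, median over peaks) and a region of 4 tissues at its right end. Chromosome 9 held 3 of them near each other: 266739 bases at chr9:17926910-18193648, 187019 bases at chr9:17334516-17521534 and 173529 bases at chr9:16707012-16880540. The last of these lay between regions of 2 tissues each, cerebellum and cerebrum on the left and cerebellum and kidney on the right. The fifth, of 220458 bases, was at chr16:59118856-59339313.

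On chromosome 1, gaps of 199134 bases (chr1:103278743-103477876) and 199201 bases (chr1:103478247-103677447) were separated by a single 370-base region with a peak in 9 tissues. The ninth, of 176319 bases at chr11:11063727-11240045, lay between a region of 11 tissues and a region of 10 tissues. The 10 longest gaps thus had ends of every kind, from regions of 1 tissue to regions of all 11.

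All 38 autosomes had gaps. Chromosome 12 had the most, 63, followed by chromosome 3 with 58, chromosome 13 with 52, chromosome 22 with 48 and chromosome 4 with 41. These 5 chromosomes held 24.7% of the gaps and 17.1% of the autosomal span. Relative to length, chromosome 31 came first with 9.53 gaps per 10 Mb and chromosome 12 second with 8.69, and chromosome 36 came last with 1.30, or 4 gaps in all. The median chromosome had 4.70 per 10 Mb. In share of length, chromosome 31 stood at 9.36% of its span, and chromosome 13 was next at 5.56%. Of the 3.73 Mb of gaps on chromosome 31, the run around the longest gap held 1782 kb. Chromosomes 26 and 10, with 2.05 and 2.16 gaps per 10 Mb, were among the densest in union regions (303 and 251 per Mb).

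Across the 38 autosomes, gaps per 10 Mb and union regions per Mb ran in opposite directions (Pearson's r = −0.76, Spearman's rho = −0.82). Both values come from the same peaks, so this is a description. The rank correlation of gaps per 10 Mb with chromosome span was 0.0165. Chromosome 36 departed from the general relation, since its 210 regions per Mb were near the autosomal mean of 204.6 while its gaps were the fewest. Chromosome 32, with 121 regions per Mb the sparsest of all, had 7.48 gaps per 10 Mb and ranked behind chromosomes 31, 12, 13 and 22.

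**Figure D2:**
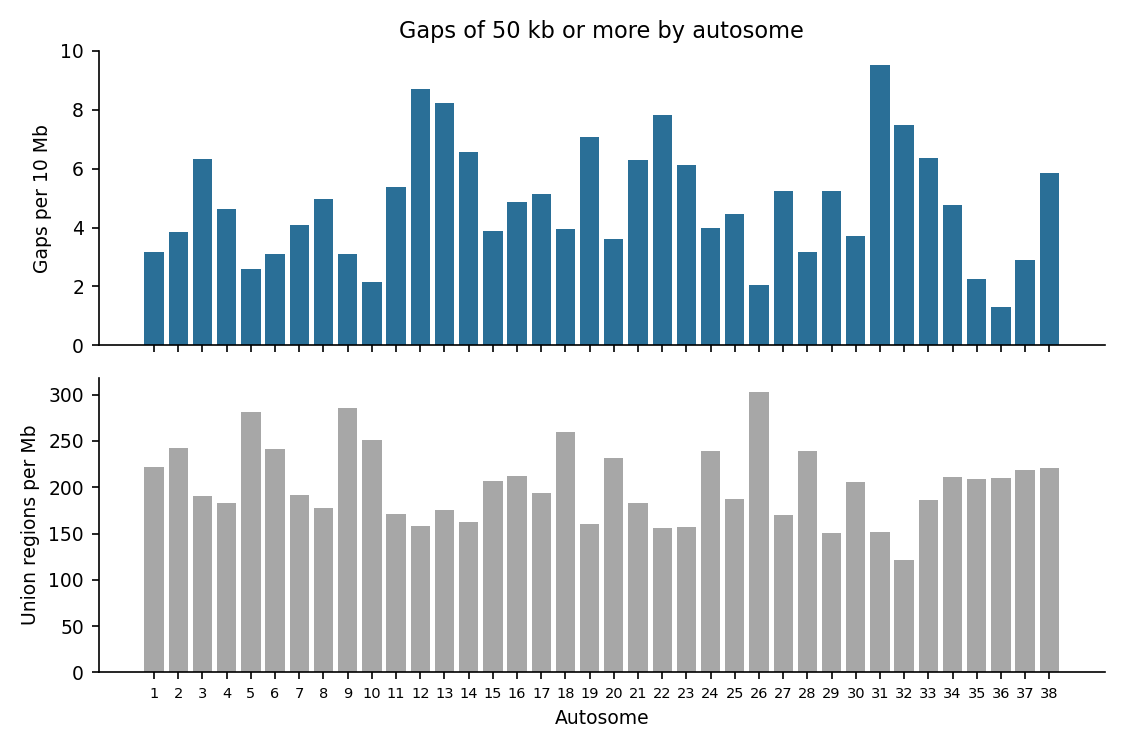
Gaps per 10 Mb (upper bars) and union regions per Mb (lower bars) on each of the 38 autosomes, both axes from 0. Chromosome 31 is highest in gaps at 9.53 and chromosome 36 lowest at 1.30, while chromosome 26 is highest in regions at 303.

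Along the chromosomes, gaps were fewest toward the ends. Each chromosome was divided into 5 equal parts from its first to its last union region. The first part held 169 gaps (15.9%), the middle 3 parts 252, 252 and 241, and the last part 147 (13.9%). Union regions had the opposite profile, with 21.0% in the first part, 16.8% in the third and 26.0% in the last.

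Many gaps lay near another gap. When gaps within 500 kb of the next one were joined, 697 of the 1061 (65.7%) fell into 239 clusters of at least 2 gaps, and 364 stood alone. The share that gaps placed at random would give was not computed, so grouping was not tested. With distances of 250 kb and 1 Mb there were 211 and 232 clusters. Without the cerebellum list there were 361 clusters. Pairs made up 117 clusters, 69 clusters held 3 gaps, and 23 held 5 or more. The clusters had a median span of 426 kb. Each autosome had at least 1 cluster, and chromosome 3 had the most, 16, followed by chromosome 12 with 14.

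The cluster with the most gaps, 11, spanned 2.25 Mb at chr19:39344097-41591495. Its gaps were short, the longest 91032 bases (chr19:39344097-39435128), and 176 union regions lay between them. The next, of 9 gaps, lay at chr22:12905403-15202181, with a longest gap of 88471 bases (chr22:15113711-15202181). A further 2 clusters held 7 gaps, and the one with more bases in gaps lay at chr2:4439007-5957481, with 46.6% of its span in gaps and a longest gap of 126703 bases (chr2:5340067-5466769). Regions inside these 3 clusters were found in 1 tissue in 26.7%, 19.0% and 15.3% of cases, where the share over all autosomal regions was 18.2%. They had a peak in all 11 tissues in 17.6%, 20.3% and 25.4%, beside 27.0% of all autosomal regions. These clusters held 59 to 176 regions between their gaps, where the run on chromosome 31 held 7.

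Some regions had a gap on both sides. There were 28 of these isolated regions, 193 to 502 bases wide. Their sharing covered the whole scale. Of the 28, 10 were found in at most 2 tissues and 10 in at least 9 tissues, with a median of 5.5. Over the regions not next to a gap, 28.3% were found in at most 2 tissues and 41.4% in at least 9, and over all regions next to a gap the shares were 35.4% and 30.6%. The regions of all 11 tissues were chr13:57548386-57548738, between gaps of 109920 and 97994 bases, and chr18:37459865-37460223, between gaps of 75780 and 66131 bases. Their median folds were 1.12 and 1.18 times the list median. The latter was the highest value among the 28 regions, of which 4 exceeded the list median, as did 28.6% of the regions not next to a gap and 19.4% of all regions next to one. At the other extreme, 4 isolated regions were found in a single tissue: cerebellum in both cases on chromosome 31, stomach at chr2:5192293-5192485 and colon at chr32:18332062-18332563.

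The surroundings of gaps were sparse as well. In the first 20 kb beyond the regions that bound the gaps there were 96.3 union regions per Mb, and at 480 to 500 kb there were 131, still below the autosomal mean. Intervals of 25 to 50 kb, the class just below the gaps, had 109 regions per Mb in the first 20 kb and 143 at 480 to 500 kb. The share of regions with a peak in all 11 tissues was 19.1% in the first 20 kb and 20.0% at 480 to 500 kb around gaps. The density rests on the same union regions that define the gaps, so it was not tested.

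**Figure D3:**
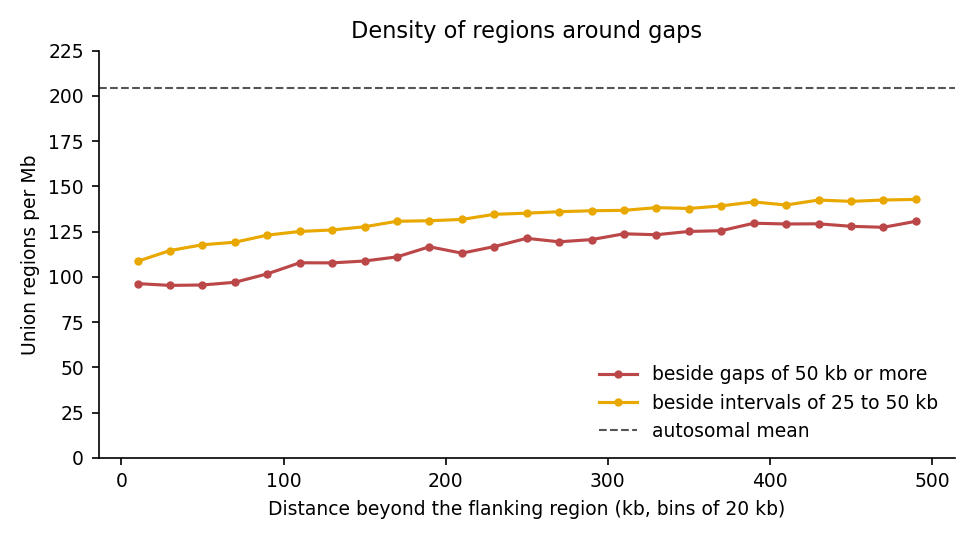
Union regions per Mb (y axis, from 0) in bins of 20 kb by distance beyond the region that bounds the interval (x axis, kb), for gaps and for intervals of 25 to 50 kb, with the autosomal mean as a dashed line. Both curves rise with distance, gaps from 96.3 to 131, and both stay under the mean of 204.6 out to 500 kb.

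The surroundings of the longest gaps varied widely. Taking 250 kb on each side, the median density was 96.0 regions per Mb beside gaps of 50 to 60 kb, 92.0 for 60 to 75 kb, 90.0 for 75 to 100 kb, and 107 for gaps of 100 kb or more. For the 13 gaps of 150 kb or more it was 136. In the gaps of 100 kb or more, 9 of the 50 with full windows (18.0%) had surroundings at or above the autosomal mean, against 6.68% of all gaps; among the 13 it was 2. The gap on chromosome 9 at 17926910 to 18193648 had 47 regions in the 250 kb on its left and 78 on its right, and the gap on chromosome 7 had 45 and 43. Others of the 10 longest lay in sparse stretches, such as the second longest with 2 and 5 regions, beside other gaps of its run, and the ninth, on chromosome 11, with 21 and 4. Windows beside 1 gap can hold another gap, and these counts describe few gaps.

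Since a gap must be free of peaks in all lists, tissues differed in how closely they approached it. In its own list, a tissue had from 2579 (ovary) to 7379 (colon) autosomal intervals of 50 kb or more, with a median of 6114. Long lists tended to have fewer. Cerebellum, with 359065 peaks, had 3350, while pancreas, with 268082 peaks, had 7232. These intervals summed to 176 Mb in ovary and 604 Mb in colon. Around a gap, the interval that was free in a tissue's own list had a median of 66.0 kb in cerebellum and 66.2 kb in ovary, 85.1 kb at the median tissue (stomach) and 97.3 kb in colon.

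Cerebellum had a peak at both ends of 617 gaps and ovary of 549, whereas the other 9 tissues had one at both ends of 116 (colon) to 360 (cerebrum). Counting either end, the numbers were 971 of 1061 gaps for ovary, 960 for cerebellum and 607 for colon. Leaving out cerebellum raised the number of gaps from 1061 to 1516, and leaving out ovary raised it to 1378. Leaving out any other tissue gave 1064 to 1094. Of the 11 lists, these 2 were the longest and moved the number of gaps most, and without both of them it was 2305.

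The 1061 gaps were bounded by 2094 regions, called flanks here, of which 28 were the isolated regions that bound 2 gaps. Flanks were narrow, with a median width of 306 bases against 347 for the other autosomal regions, and so were the flanks of intervals of 25 to 50 kb, at 307 bases. Of the flanks, 469, or 22.4% (95% Wilson interval 20.7% to 24.2%), were found in 1 tissue, where the share of all autosomal regions was 18.2%. At the other end of the scale, 342 flanks, or 16.3% (14.8% to 18.0%), had a peak in all 11 tissues, beside 27.0% of all autosomal regions. The median flank was found in 5 tissues and the median other region in 7. The intervals cover counting error only.

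The ends of gaps combined much as those of shorter intervals did. Both flanks had a peak in all 11 tissues in 29 gaps (2.73%), and both were found in 1 tissue in 58 gaps (5.47%). In 26 of those 58 the tissue was the same at both ends. At least 1 end was a region of 1 tissue in 415 gaps (39.1%). For intervals of 25 to 50 kb the same shares were 3.22%, 5.60% and 39.6%. When regions of 1 tissue were disregarded, these 415 gaps became longer, and some joined: the 1061 gaps then lay in 1055 intervals, of which 6 held more than 1 gap. A further 1111 intervals that held no gap crossed 50 kb, for a total of 2166.

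Flanks of 1 tissue came mostly from the same pair of lists. Cerebellum supplied 233 of the 469 (49.7%) and ovary 163 (34.8%), where they supplied 42.7% and 32.2% of all autosomal regions found in 1 tissue. Kidney followed with 21 and cerebrum with 19, and pancreas had 1. Liver, with 4500 such regions on the autosomes, supplied 6 flanks.

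Intervals of 25 to 50 kb had ends of the same composition. Of the 16880 regions that bounded them, 22.6% were found in 1 tissue and 16.7% in all 11, with a median of 5 tissues. The sharing at the ends of gaps was close to that at the ends of this shorter class.

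**Figure D4:**
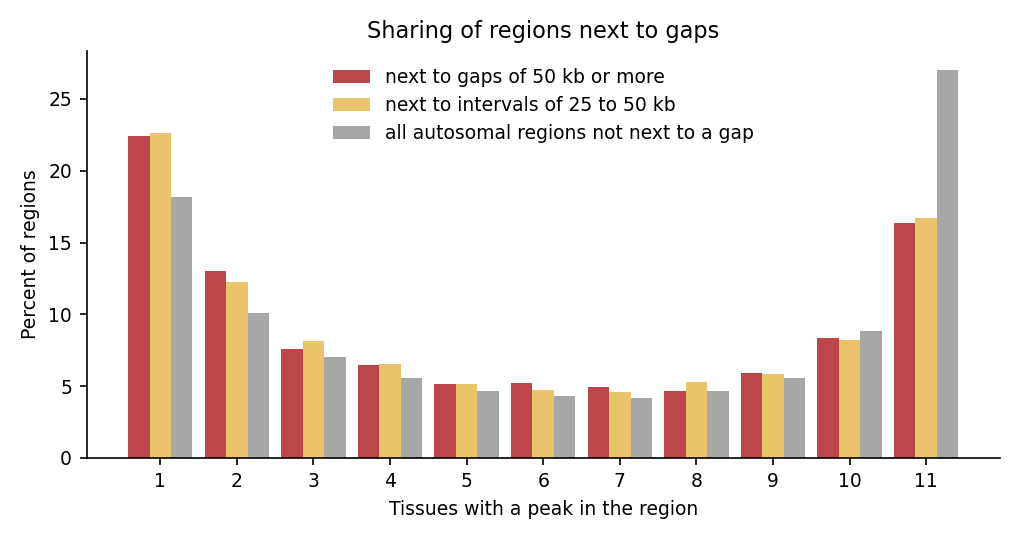
Percent of regions (y axis, from 0) by the number of tissues with a peak in them (x axis), for regions next to gaps (n = 2094), next to intervals of 25 to 50 kb (n = 16880) and all autosomal regions not next to a gap (n = 448691). The sets next to gaps and next to intervals of 25 to 50 kb almost coincide, at 16.3% and 16.7% for 11 tissues, below 27.0% for the third.

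The percent of flanks with a peak of a given tissue was lowest in colon (33.9%), had its median in stomach (44.0%) and was highest in cerebellum (74.4%). Among all other autosomal regions the same percent was 48.4% in colon, 51.7% in stomach and 69.0% in cerebellum. It was lower at flanks in 10 of the 11 tissues. The exception was cerebellum, where it was 5.33 percentage points higher, while the lowest difference was −14.5 points in colon. The mean difference was −8.16 ± 5.97 points (SD, n = 11), given without a test because the positions of the same peaks defined the flanks. For a test, the flanks were found from the other 10 lists alone, with the tissue held out. The mean difference was then −8.06 ± 6.15 points, negative in 10 of 11 tissues and 6.63 in cerebellum (exact sign-flip permutation test over tissues, two-sided, p = 0.00488; adjusted over the 3 held-out tests, p = 0.00488).

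Against the flanks of intervals of 25 to 50 kb, the mean difference in presence was −0.162 ± 1.26 points, with 6 of 11 tissues lower. For gaps of at least 100 kb the difference from other regions was −3.25 ± 7.59 points, with 8 of 11 tissues lower. Both values rest on flanks that the tissue's own peaks helped to define and were not tested, and lower presence was not shown to be particular to gaps of 50 kb or more.

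The fold of a peak was divided by the median of its list to allow peaks of different lists to be set side by side. Peaks in flanks had a median relative fold of 0.825 in colon, 0.886 in lung, the median tissue, and 0.972 in cerebellum. The other autosomal peaks of each list had a median of 1.00 to 1.01. With flanks found from all 11 lists, the peaks beside gaps were thus lower than the rest of the list in each tissue, and the ranges did not overlap. As a log2 difference within each list, the value was lowest in colon (−0.28), followed by liver (−0.27) and pancreas (−0.24), and least negative in cerebellum (−0.05). The mean was −0.18 ± 0.07 (SD, n = 11), negative in 11 of 11 tissues, given without a test because the tissue's own peaks helped to define the flanks. With flanks found from the other 10 lists the mean was −0.16 ± 0.10, negative in 10 tissues and 0.08 in cerebellum, where flank peaks were then the higher (exact sign-flip permutation test, two-sided, p = 0.00195; adjusted over the 3 held-out tests, p = 0.00293). In this held-out setting a flank peak overlaps a region of another list, whereas the other peaks include those found in the tissue alone. The latter are weak, with a median relative fold of 0.641 in cerebellum, both in long and in shorter intervals. The compared sets thus differ in sharing as well, and the sign in cerebellum cannot be read apart from that. With flanks from all 11 lists, the median −log10 p-value of flank peaks ran from 16.0 in spleen to 26.0 in stomach, against 20.1 in lung to 31.9 in stomach for other peaks.

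The differences in fold that follow rest on flanks from all 11 lists and were not tested. Among regions that all 11 tissues shared, flank peaks differed by a mean of −0.25 ± 0.13 (log2; negative in 10 of 11 tissues), and these flanks were also narrower, with a median of 366.5 bases against 799. Over regions of 1 tissue, each defined by the same peaks, the difference was 0.05 ± 0.08, with 1 (pancreas) to 233 (cerebellum) flanks behind a tissue's value. Against flanks of intervals of 25 to 50 kb the difference was −0.00098 ± 0.016, with 6 of 11 tissues negative. As with presence, the lower fold was not shown to be particular to the longest class of interval.

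The lists differed in their shortest peak, which was over 200 bases in cerebrum, kidney, lung, mammary gland and ovary and under 200 in the other 6 tissues. The inputs of pancreas, ovary, kidney and mammary gland carried 1 animal identifier in their titles, and those of the other 7 tissues carried jj8, whose sex the labels give in conflicting ways. For presence with the tissue held out, the mean was −8.60 points in the 6 lists (exact sign-flip permutation test, two-sided, p = 0.0625) and −7.42 points in the 5 lists (exact test, p = 0.0625, the smallest possible). By input it was −7.33 points in the 4 tissues (exact test, p = 0.125, the smallest possible) and −8.47 points in the 7 (exact test, p = 0.0469). For fold with the tissue held out, the means were −0.18 and −0.14 by shortest peak (exact tests, p = 0.0625 in both) and −0.16 and −0.16 by input (exact tests, p = 0.125 and p = 0.0312). The classes of 5 and 4 tissues cannot reach p of 0.05.

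Strong peaks beside gaps were uncommon but present. Of the flanks, 42 (2.01%) had a median fold over 2 times the list median, against 7.28% of other autosomal regions and 2.47% of the flanks of intervals of 25 to 50 kb. The flank with the highest relative fold was a 2777-base region at chr12:14849168-14851944, on the right of a gap of 55033 bases (chr12:14794135-14849167). All 11 tissues had a peak there. The highest was a mammary gland peak with a fold of 50.1 and a relative fold of 7.26, which covered most of the region in 1 peak. The other 10 tissues had 2 peaks each. Among these, lung reached 5.28 times its list median, colon 4.87 and pancreas 4.17, whereas in liver neither peak exceeded 2.34. By the median over its peaks, the strongest flank was an 871-base region at chr3:31329135-31330005, at 3.95 times the list median.

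**Figure D5:**
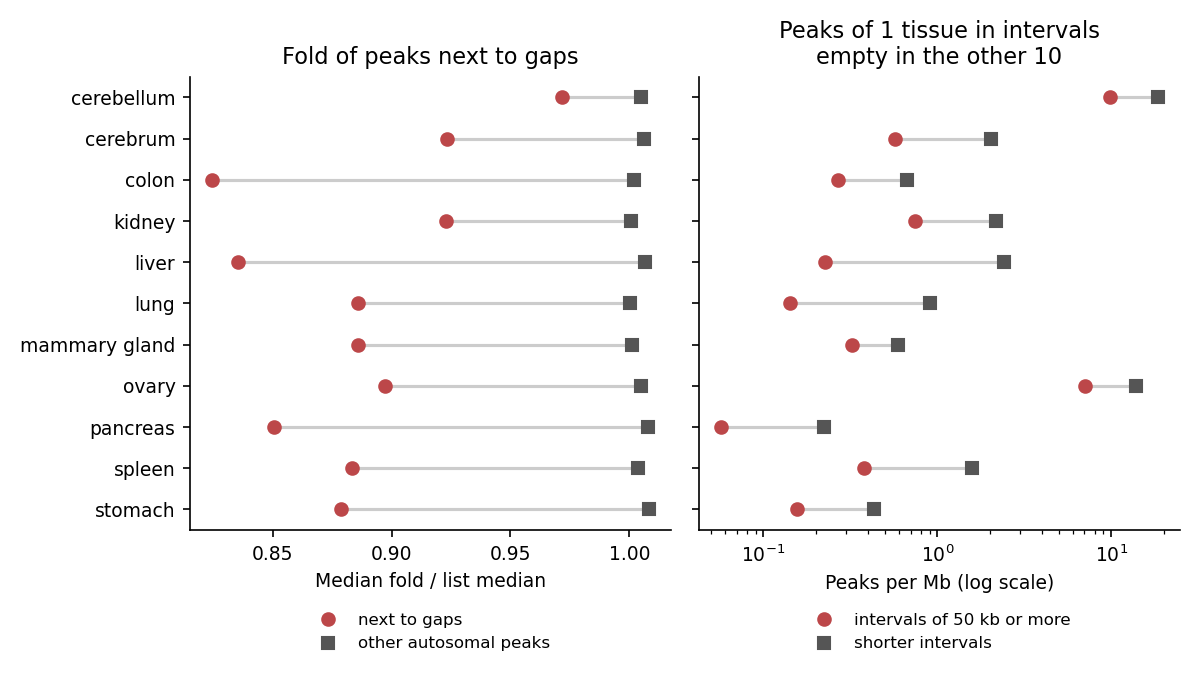
Left, median relative fold (fold divided by the list median) of peaks next to gaps (red circles) and of other autosomal peaks (grey squares) in each tissue. Right, peaks per Mb (log scale) of 1 tissue inside intervals that were empty in the other 10 tissues, for intervals of 50 kb or more (red circles) and shorter ones (grey squares). Red lies left of grey in all 11 tissues in both panels, and cerebellum and ovary have the highest densities, 9.82 and 7.04 per Mb in the long intervals.

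To ask whether long intervals stayed empty in a tissue that had not defined them, gaps were found from 10 lists and the peaks of the held-out tissue were counted in them. For 9 of the tissues, 95.2% (kidney) to 99.6% (pancreas) of the 1064 to 1094 gaps of the other 10 held no peak of the tissue. Shorter intervals, which have less room for a peak, were also nearly all empty in these 9 tissues, 99.04% (liver) to 99.91% (pancreas) of them, so the share of empty gaps shows nothing particular to gaps and the density per Mb was compared instead. Cerebellum had a peak in 674 of 1516 such gaps (44.5%) and ovary in 470 of 1378 (34.1%). The density in gaps ran from 0.0567 peaks per Mb in pancreas (4 peaks) through 0.323 in mammary gland, the median tissue, to 9.82 in cerebellum (992 peaks). In the shorter intervals between regions of the other 10 lists it ran from 0.223 in pancreas through 1.57 in spleen to 18.5 in cerebellum.

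The density was lower in the long intervals in 11 of 11 tissues. The log2 ratio of long to shorter intervals was lowest in liver (−3.42) and closest to 0 in mammary gland (−0.88), with cerebellum at −0.91 and ovary at −0.98. Its mean was −1.74 ± 0.79 (SD, n = 11; two-sided exact sign-flip permutation test, p = 0.000977, which is the smallest possible; adjusted over the 3 held-out tests, p = 0.00293). Compared with intervals of 10 to 50 kb alone, the mean was −1.02 ± 0.46 (exact sign-flip permutation test, two-sided, p = 0.000977). It was −1.86 in the 6 lists whose shortest peak was under 200 bases (exact test, p = 0.0312) and in the other 5 lists −1.59 (exact test, p = 0.0625). By input it was −1.35 in 4 tissues (exact test, p = 0.125) and −1.96 in 7 (exact test, p = 0.0156). Each of these 4 p-values is the smallest its number of tissues allows, so the classes of 5 and 4 tissues could not pass 0.05. Any 2 of the held-out sets of gaps share most of their lists, so the 11 values are not independent. With the length minimum at 25 kb the mean log2 ratio was −1.39. With the first and last 1 kb of each interval left out it was −1.36. Both were negative in 11 of 11 tissues, and lower density was not shown to be particular to gaps of 50 kb or more.

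The peaks that a held-out tissue did have in long intervals had folds below the median of their list. Their median relative fold ran from 0.529 in stomach to 0.696 in ovary, with cerebellum at 0.641. In the shorter intervals the values were 0.524, 0.672 and 0.641 in these 3 tissues. When peaks in the upper 50% of folds of their list were counted alone, 4 of the 11 tissues had none in the long intervals. Among the other 7 the mean log2 ratio was −0.44 ± 1.03, with 5 negative (exact sign-flip permutation test, two-sided, p = 0.281). The 4 tissues without such a peak in long intervals gave no ratio and are left out of this mean, so it does not show whether strong peaks differed in density. When every list was cut to its upper 50% of folds before gaps were found, the gaps were other and more numerous. The mean was then −1.30 ± 0.59, negative in 11 of 11 tissues (exact sign-flip permutation test, two-sided, p = 0.000977).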

How the data were processed

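MBD-seq of 11 beagle tissues (22 MBD and 11 input libraries) was deposited by the authors as 1 peak list per tissue. The build was CanFam3.1, per the submitters' processing notes; the aligner, caller and filters are not given in the sources used here. Each deposited peak carries a fold, a linear ratio of enrichment, and a −log10 p-value, both used unchanged; the columns have no header and were read by the usual order of this peak format. Titles carried 4 animal identifiers although 3 dogs were described. Depth per library is unknown.

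Peaks were merged when they overlapped or touched, and a tissue was present in a region when 1 of its peaks overlapped it. Flanks are the regions next to a gap, clusters join gaps within 500 kb, and relative fold is fold divided by the list median. For the held-out density, a peak counted when it lay whole inside an interval of the other 10 lists. Values per tissue were tested by exact sign-flip permutation over 2048 arrangements, with Benjamini-Hochberg adjustment over 3 tests. The test treats tissues as independent, but held-out sets share most lists and animals recur between tissues, so the p-values are approximate. Presence and fold were planned as tests on flanks from all lists; they are given as descriptions, since the same peaks define those flanks, and were tested on flanks found without the tissue, a choice made after seeing the data. The regions named are the 10 longest gaps, the 3 on each side of the threshold, the longest gap of the 3 largest clusters and the strongest flank; further ones were chosen after their values were seen. Members and lists were chosen with earlier results of these data known. Alternatives changed the length minimum, the peaks and tissues used, the cluster distance, the flanks, the fold scale and the comparison intervals. Functions were tested on simulated lists. Python 3.11.15, numpy 2.4.6, pandas 2.3.3, scipy 1.17.1 and matplotlib 3.10.9 were used.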

Additional observations from a re-analysis of the deposited data

How the results depend on the processing

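The number of gaps followed the length minimum by construction, with 9985 at 25 kb, 2457 at 40 kb, 192 at 75 kb and 53 at 100 kb, and clusters numbered 604, 478, 27 and 9. It was 4638 (601 clusters) when each list was reduced to its upper 50% of folds, 1981 (431 clusters) with equal list sizes, 2166 (459 clusters) with regions of at least 2 tissues and, as an alternative chosen after seeing the data, 2305 (476 clusters) without cerebellum and ovary. Leaving out 1 tissue gave 1064 to 1516 gaps and 239 to 361 clusters, highest without cerebellum. The share of flanks with a peak in all tissues, 16.3%, was 20.6% at 75 kb, 18.2% at 100 kb, 5.88% in the upper 50% of folds, 20.2% with regions of at least 2 tissues, 23.5% without cerebellum and ovary, and 16.5% to 19.2% with 1 tissue left out. A change of the peaks, regions or tissues used also changes this share over all autosomal regions. That share is not given here for these settings, so the moves are not a result about flanks.

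With each tissue left out, log2 density (−1.87 to −1.56) passed at p of 0.05; the untested values on flanks from all lists were −8.75 to −7.71 points for presence and −0.20 to −0.17 for log2 fold. Presence was −3.25 points at 100 kb and −0.162 points against flanks of 25 to 50 kb intervals. Fold against the latter was −0.00098. The call was lost for density when the held-out peaks alone were cut to the upper 50% of folds (−0.44). The 4 tissues with no such peak in long intervals dropped out there, so that this value settles nothing for strong peaks. With every list cut to its upper 50% of folds, log2 density was −1.30, negative in 11 of 11 tissues (exact sign-flip permutation test, two-sided, p = 0.000977). The untested fold difference reversed among regions of 1 tissue (0.049). The cause was not tested. At 75 kb and 100 kb, 1 and 3 tissues had no peak in long intervals and gave no density. Without the run on chromosome 31, also left out after seeing the data, 1055 gaps and 238 clusters remained, with −8.07 points, −0.18 and −1.70 for presence, fold and density. The alternative on undetermined bases was not run, since no genome of this build was used here. No paired analysis was possible because each tissue had a single peak list for both animals, so libraries could not be paired by animal; the tests do compare values within each list. With the number of reads unknown, a missing peak may reflect depth, and no gap can be called free of methylation.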
